A study of Homo sapiens with 2 samples.

Results

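VEGFA, NDRG1, ANKRD37, SCG2 and PDGFB are 5 of the 2007 genes that the authors listed as differing between HT-29 cells with and without knockdown of GPR126. They were taken by symbol, as hypoxia-response and angiogenic genes that do not belong to glycolysis, and all 5 were found in the deposited table. They were chosen with these read counts known, so their own differences are given as a description and without a test. HT-29 is a human colon adenocarcinoma epithelial line. One library came from HT-29 cells with a scramble control and 1 from HT-29 cells in which GPR126 was silenced by RNA interference with a short hairpin RNA. The labels name no second culture, no second hairpin, no drug and no oxygen level. Each group is thus a single library, and the differences given here compare those libraries with no replicate check.

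In normal oxygen, prolyl hydroxylases mark the alpha subunits of the hypoxia-inducible factors (HIF) for destruction by the VHL ubiquitin ligase. When oxygen is short the alpha subunits persist, pair with ARNT and bind a short DNA element in genes for glucose use, angiogenesis and survival. VEGFA encodes the ligand that drives endothelial growth, NDRG1 a cytoplasmic protein known to be induced by hypoxia and iron depletion, and ANKRD37 a small ankyrin-repeat protein known as a HIF-1 target. SCG2 encodes secretogranin II, the precursor of the angiogenic peptide secretoneurin. PDGFB encodes the B chain of platelet-derived growth factor, which recruits mural cells to new vessels. Several of these genes also answer to other pathways, among them the amino acid and endoplasmic reticulum stress response for VEGFA.

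Library totals were 5753320 reads (scramble) and 6010192 reads (knockdown), so that 1 read was worth 0.174 and 0.166 reads per 1e6 (RPM). GPR126 (now ADGRG6), an adhesion G protein-coupled receptor and the target of the hairpin, had 68 scramble and 2 knockdown reads, that is, 35.5-fold less (95% counting interval 9.46 to 299). The table holds selected genes only. An unlisted gene may have differed by less than 2-fold, been too weakly expressed to pass or not been supplied. None of 11 colon epithelial markers was listed, so the table could not be used to check the labelled cell type. Of 34 markers of endothelium, fibroblasts and mural cells, leukocytes, platelets and neuroendocrine cells, the collagen gene COL1A1 alone was listed, with 83 and 227 reads; its part in the results below was not tested. In bulk RNA, a change in the share of cells that express a gene and a change in RNA per cell cannot be told apart.

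The RefSeq promoter table (GRCh38.p14, 250 bases before to 50 after the annotated start) held 1 of the 5 genes, ANKRD37. Its promoter is printed because it carries the core letters of the HIF element, ACGTG or GCGTG on either strand, which are in capitals. The promoters of EDN1 and LDHA, HIF targets that were higher and lower in the knockdown library, are printed beside it for comparison and were chosen after their values were seen. The windows are chr4:185396591-185396890, chr6:12287769-12288068 and chr11:18394313-18394612, all on the plus strand and written 5′ to 3′.
ANKRD37: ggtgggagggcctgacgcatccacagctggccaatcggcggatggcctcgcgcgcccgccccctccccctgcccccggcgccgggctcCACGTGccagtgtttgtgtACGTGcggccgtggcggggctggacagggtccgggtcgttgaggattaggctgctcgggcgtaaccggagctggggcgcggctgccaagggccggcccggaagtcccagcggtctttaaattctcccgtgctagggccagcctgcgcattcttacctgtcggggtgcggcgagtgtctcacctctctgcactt
EDN1: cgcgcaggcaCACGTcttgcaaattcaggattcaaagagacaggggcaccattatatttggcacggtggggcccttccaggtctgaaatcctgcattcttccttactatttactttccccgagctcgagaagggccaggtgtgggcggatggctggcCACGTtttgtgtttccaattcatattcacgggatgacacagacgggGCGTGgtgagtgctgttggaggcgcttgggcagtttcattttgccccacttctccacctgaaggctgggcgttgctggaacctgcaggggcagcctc
LDHA: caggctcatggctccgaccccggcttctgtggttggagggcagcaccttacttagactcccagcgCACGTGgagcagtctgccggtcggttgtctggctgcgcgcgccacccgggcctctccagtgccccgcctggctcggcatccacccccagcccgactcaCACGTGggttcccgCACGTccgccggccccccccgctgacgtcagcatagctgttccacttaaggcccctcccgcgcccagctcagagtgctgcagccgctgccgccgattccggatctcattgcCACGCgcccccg

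In the ANKRD37 promoter the letters ACGTG occurred 3 times. The first 2 overlap in the palindrome CACGTG, which starts 162 bases before the transcription start and reads ACGTG on each strand, and the third starts 143 bases before it. EDN1 held 3 matches that do not overlap and LDHA 6, of which 4 lie in a pair of CACGTG palindromes. ACGTG or GCGTG was present in 48.4% of 27305 promoters of the same length, in 57.7% of the 513 available promoters of listed genes at least 2-fold higher and in 67.2% of the 1114 of genes at least 2-fold lower. ACGTG alone was present in 21.6%, 20.7% and 29.7%, and CACGTG, which contains it, in 7.43%, 7.80% and 13.5%. The letters were thus found in promoters of genes of either direction. The cyclic AMP element TGACGTCA and the letters TGATGNAA, searched on both strands for the amino acid response element, did not occur in the ANKRD37 window. TGACGTCA, which the LDHA window holds, was in 1.98% of all promoters and in 4.09% and 3.32% of those of higher and lower genes. For TGATGNAA the shares were 3.67%, 2.34% and 1.26%.

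All 5 genes had more reads in the knockdown library, and SCG2 had the largest fold. Levels below are RPM values with no gene length in them, so they are compared between libraries and not between genes. VEGFA (Entrez 7422) had 137 scramble and 720 knockdown reads, or 23.8 RPM (20.0 to 28.2) and 119.8 RPM (111 to 129). The knockdown level was 5.03-fold higher, with a counting interval of 4.19 to 6.08. The other listed ligand of this growth factor family, PDGFB (Entrez 5155), had 51 scramble and 128 knockdown reads, or 8.86 RPM (6.60 to 11.7) and 21.3 RPM (17.8 to 25.3). PDGFB was 2.40-fold higher (1.72 to 3.39), the smallest fold of the 5 and the nearest to the 2-fold limit of the table. The VEGFA and PDGFB fold intervals do not overlap.

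SCG2 (Entrez 7857), the secreted granin, had 16 scramble and 132 knockdown reads, or 2.78 RPM (1.59 to 4.52) and 22.0 RPM (18.4 to 26.0). It was 7.90-fold higher, and its interval of 4.69 to 14.2 is the widest of the 5 because it rests on 16 scramble reads. That interval overlaps those of VEGFA and NDRG1, so the order of these 3 folds is not resolved by the counts.

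The intracellular genes differed in size of effect. NDRG1 (Entrez 10397) had 282 scramble and 1438 knockdown reads, or 49.0 RPM (43.5 to 55.1) and 239 RPM (227 to 252). It was 4.88-fold higher (4.29 to 5.57), a gain of 190.2 RPM, and the fold interval overlaps that of VEGFA. ANKRD37 (Entrez 353322), whose promoter is printed above, had 40 scramble and 113 knockdown reads, or 6.95 RPM (4.97 to 9.47) and 18.8 RPM (15.5 to 22.6). It was 2.70-fold higher (1.87 to 3.98), an interval that overlaps that of PDGFB and lies below those of VEGFA, NDRG1 and SCG2. In the RefSeq gene models ANKRD37 overlaps LRP2BP and UFSP2, neither of them listed, and the sources used here do not say whether reads were counted by strand. Its count may therefore hold reads of those genes.

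**Figure D1:**
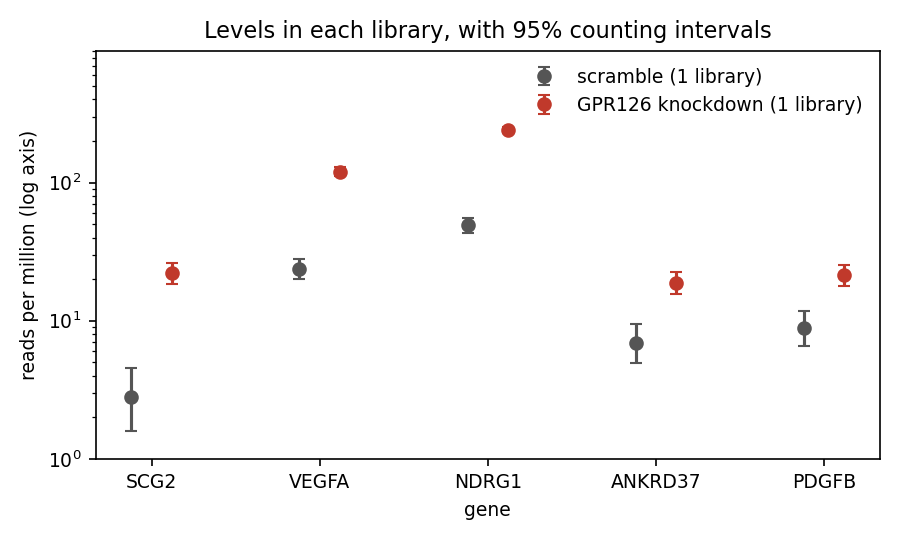
RPM (log axis) of the 5 genes in the scramble library (grey) and the GPR126 knockdown library (red), 1 library each; bars are exact 95% Poisson intervals of the counts and cover counting error only. For each gene the knockdown interval lies above the scramble interval, from 2.78 against 22.0 RPM for SCG2 to 8.86 against 21.3 RPM for PDGFB.

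All 5 genes were at least 2-fold higher, a size that 32.9% of the listed genes had in that direction. VEGFA, NDRG1 and SCG2 were at least 4-fold higher, as were 8.27% of the listed genes, and NDRG1 lay nearest above that limit while ANKRD37 lay nearest below it. The same 3 genes had the whole counting interval beyond 2-fold, as 16.4% of the listed genes did. Nothing is read from these shares, since the genes were chosen on this contrast. On the log2 scale with 0.5 reads added, the ratios of knockdown over scramble were 2.94 for SCG2, 2.33 for VEGFA, 2.29 for NDRG1, 1.42 for ANKRD37 and 1.26 for PDGFB, against a median of -1.16 over all 2007 listed genes. Counted from the highest ratio in the table, they ranked 58, 116, 123, 349 and 434.

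**Figure D2:**
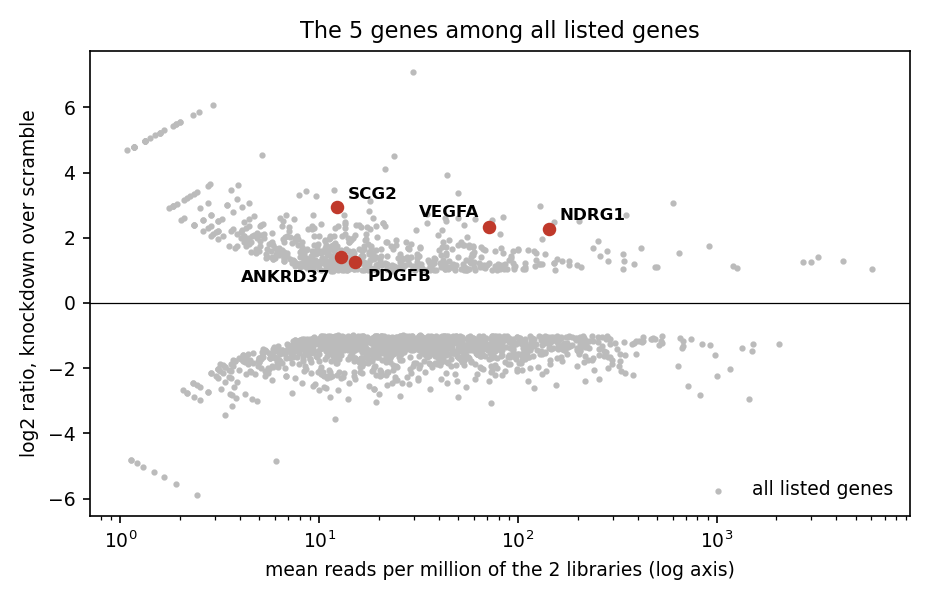
Log2 ratio of knockdown over scramble against mean RPM (log axis) for the 2007 listed genes (grey), with the 5 genes in red. The empty band around 0 is the authors' 2-fold limit; SCG2, VEGFA and NDRG1 lie above a ratio of 2, and ANKRD37 and PDGFB at 1.42 and 1.26.

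VEGFA was compared with 1360 listed genes whose larger count reached 100 reads. Genes with provisional symbols, such as open reading frame numbers, were left out, and a gene left out may lie nearer. Of the 1360 genes, PTPRH, RRAD and DDIT4 had the log2 ratios nearest to that of VEGFA. PTPRH, a receptor-type tyrosine phosphatase, had 31 and 164 reads and a ratio that differed from that of VEGFA by -0.005. RRAD, a small GTPase of the RGK family, had 40 and 215 reads and differed by 0.022. DDIT4, an inhibitor of mTORC1 signalling known to be induced by hypoxia, had 23 and 125 reads and differed by 0.027. With 2 libraries, likeness means only a like ratio.

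The HIF machinery was almost absent from the table. Of 20 genes of HIF subunits, hydroxylases, the VHL ligase and coactivators, 19, including HIF1A, EPAS1, ARNT, VHL and EGLN1, were not listed. The exception was CITED2, which encodes a protein known to compete with HIF-1 alpha for the coactivators p300 and CBP. Its reads numbered 88 and 191, a 2.08-fold higher level in the knockdown library (1.61 to 2.71).

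Of 35 HIF targets outside glycolysis, 11 were listed, 10 of them higher and 1 lower, with a median log2 ratio of 1.42; among all the listed genes 33.3% were higher and 66.7% lower. VEGFA, NDRG1 and ANKRD37 are 3 of the 11, and of the other 8 genes 7 were higher. These targets too were chosen with earlier results of these data known, so nothing is read from their count. The DDIT4 counts given above correspond to a 5.20-fold higher level (3.32 to 8.51). EDN1, the precursor of the vasoconstrictor endothelin-1, had 0 scramble and 17 knockdown reads. Set against 3 reads in the scramble library this is 5.42-fold higher, and its counting interval starts at 3.95-fold. The sterol regulator INSIG2 (2.52-fold, 2.03 to 3.14), the secreted lipase inhibitor ANGPTL4 (2.28-fold, 1.57 to 3.35) and the secreted glycoprotein STC2 (2.11-fold, 1.75 to 2.55) were higher by less. The exception was the transferrin receptor TFRC, with 1598 and 808 reads, 2.07-fold lower (1.90 to 2.25). Its direction turned, to a log2 ratio of 0.11, when libraries were scaled so that the listed genes had a median ratio of 0. The other 24 genes of this group, among them CA9, ADM, BNIP3 and EGLN3, were not listed.

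Of 21 HIF targets in glucose use 4 were listed, 3 lower and 1 higher. Their median log2 ratio of -1.16 equals that of all listed genes, of which 66.7% were lower, so the split of this group is near the background of the table. The glycolytic enzyme PGAM1 went from 7099 to 1256 reads (5.90-fold lower, 5.56 to 6.27), ALDOA was 2.30-fold lower (2.16 to 2.47) and LDHA, whose promoter is printed above, 2.17-fold lower (2.05 to 2.29). Under that median scaling the log2 ratio of LDHA turned to 0.044 and that of ALDOA came to -0.045, while PGAM1 stayed lower at -1.40. The glucose transporter SLC2A3, with 32 and 108 reads, was 3.23-fold higher (2.16 to 4.96), and the other 17 genes were not listed. Whether the groups inside and outside glycolysis differ in response was not tested, because the libraries have no replicates.

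**Figure D3:**
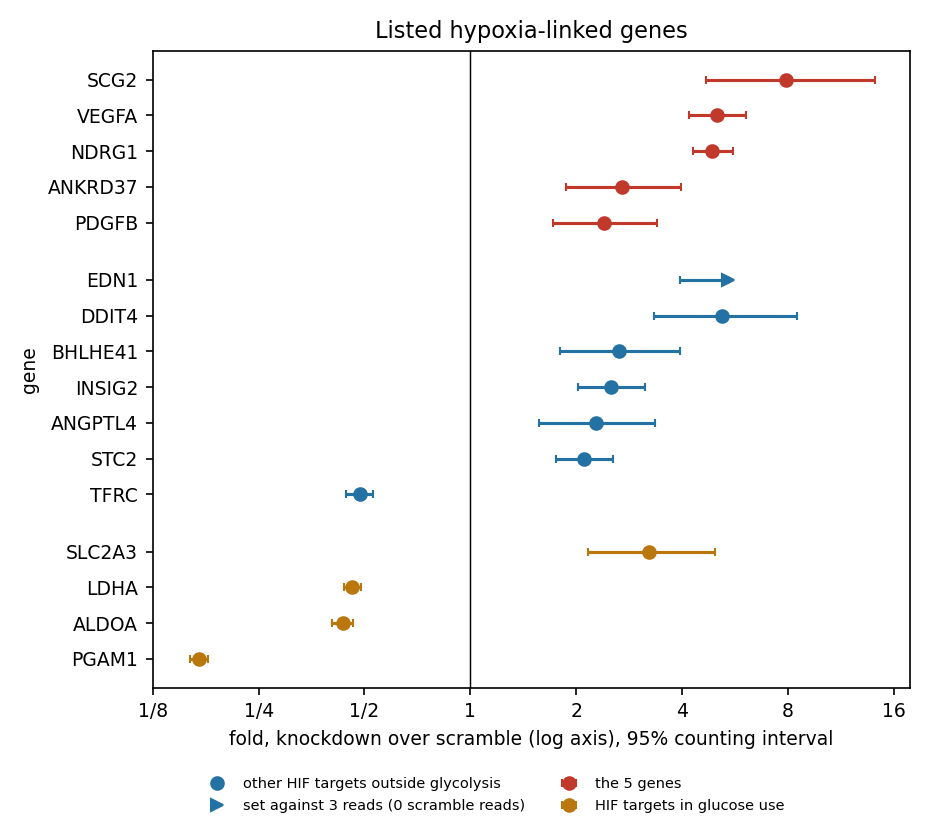
Fold of knockdown over scramble (log axis) with exact 95% counting intervals for the 5 genes (red), other listed HIF targets outside glycolysis (blue) and the listed HIF targets in glucose use (ochre); the triangle is the value of EDN1, with 0 scramble reads, set against 3 reads, and its bar reaches down to the lower end of its counting interval. TFRC, LDHA, ALDOA and PGAM1 lie below 1, and the remaining genes shown lie above it.

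Among the growth factors and receptors around VEGFA and PDGFB, the ligands alone were represented. Of 9 VEGF and PDGF ligands, VEGFA and PDGFB were listed and the other 7 were not. None of the 8 receptor and co-receptor genes, including FLT1, KDR, NRP1 and PDGFRB, was listed. Of 33 other secreted regulators of angiogenesis 10 were listed, all 10 of them higher (median log2 ratio 1.83). Among all listed genes 33.3% were higher. Because these regulators were chosen with earlier results of these data known, nothing is read from their count. The chemokine IL8 (CXCL8), with 5 and 32 reads, was 6.13-fold higher (2.37 to 20.1) and CXCL3, with 6 and 30 reads, 4.79-fold (1.96 to 14.1). The basement membrane proteoglycan HSPG2 was 5.33-fold higher (3.55 to 8.29), and the epidermal growth factor receptor ligands TGFA and HBEGF were 3.27-fold (2.74 to 3.93) and 2.42-fold (1.64 to 3.62) higher. The semaphorin SEMA3B was 2.25-fold higher (1.54 to 3.34). This group thus holds genes known to promote and genes known to restrain vessel growth.

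SCG2 and NDRG1 had few listed relatives. Of 11 granin and secretory granule genes, VGF, a secreted neuropeptide precursor, was listed beside SCG2, with 56 and 187 reads (3.20-fold higher, 2.36 to 4.39). CHGA, CHGB and 7 further genes of this group were not listed, nor were the neuroendocrine markers SYP, INSM1, NEUROD1 and NCAM1. Of the 4 NDRG genes, NDRG1 alone was listed.

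VEGFA also belongs to a group of 16 ATF4-linked stress genes, of which 8 were listed, 7 higher and 1 lower, with a median log2 ratio of 2.34. Of the 7 listed genes other than VEGFA, 6 were higher and 1 lower, where 33.3% of all listed genes were higher. The group was chosen with earlier results of these data known, so nothing is read from its count. DDIT4 and STC2 fall in this group as well as among the HIF targets. The transcription factor gene ATF3 was 10.1-fold higher (5.31 to 21.8), DDIT3 6.01-fold (4.86 to 7.50) and the asparagine synthetase gene ASNS 5.70-fold (5.09 to 6.41), whereas the amino acid transporter gene SLC7A5 was 2.33-fold lower (2.12 to 2.56) but, with the median scaling, at -0.060 on the log2 scale.

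The deposited gene ontology terms describe what the 5 genes share beyond their symbols. VEGFA, PDGFB and SCG2 carry the term for positive regulation of endothelial cell proliferation, which 4 listed genes have; the fourth, the kinase gene MTOR, had 357 and 150 reads and a log2 ratio of -1.31. VEGFA and PDGFB are the 2 listed genes with the term for platelet-derived growth factor receptor binding, and VEGFA, SCG2 and IL8 are the 3 with the term for induction of positive chemotaxis. VEGFA and PDGFB carry a hypoxia term but no term that names angiogenesis, and SCG2 the reverse. NDRG1 and ANKRD37 carry none of the hypoxia or angiogenesis terms. NDRG1 is annotated to response to metal ion and mast cell activation, and ANKRD37 has no process term.

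Genes with a hypoxia term numbered 14, of which 12 were higher and 2 lower, with a median log2 ratio of 1.18, where 33.3% of all listed genes were higher. VEGFA and PDGFB are 2 of them, and 10 of the other 12 were higher. The urokinase gene PLAU, with 40 and 162 reads, was 3.88-fold higher (2.73 to 5.63), and the cortisol-inactivating enzyme HSD11B2, with 59 and 27 reads, was 2.28-fold lower (1.42 to 3.74). Of 21 genes with an angiogenesis term 17 were higher and 4 lower, with a median of 1.41. The higher genes included SCG2 and the adhesion molecule CEACAM1 (6.80-fold, 3.49 to 14.8). The 4 lower genes were the nucleolar protein NCL (2.46-fold, 2.36 to 2.56), the dolichol synthesis subunit NUS1 (2.36-fold, 2.04 to 2.73), the small RNA processing enzyme DICER1 (2.19-fold, 1.72 to 2.80) and the acetyltransferase subunit NAA15 (2.10-fold, 1.71 to 2.59), and DICER1 and NAA15 changed sign under the median scaling.

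Growth factor activity was annotated for 20 listed genes, 13 higher and 7 lower, with a median of 1.14. Without VEGFA and PDGFB, 11 were higher and 7 lower, with a median of 1.03. Among all listed genes 33.3% were higher. The stress-induced cytokine GDF15 stood ahead of VEGFA, at 8.43-fold higher (7.81 to 9.11) with 737 and 6489 reads. MACC1 (3.62-fold, 1.98 to 7.07) and the matricellular protein CTGF (CCN2; 3.51-fold, 1.96 to 6.69) followed. IL10, with 26 and 3 reads, was 9.05-fold lower (2.77 to 46.7), the hormone AMH 3.66-fold lower (1.89 to 7.63), the Wnt inhibitor DKK1 2.70-fold lower (2.40 to 3.05) and C19orf10 (MYDGF) 2.47-fold lower (2.08 to 2.95).

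**Figure D4:**
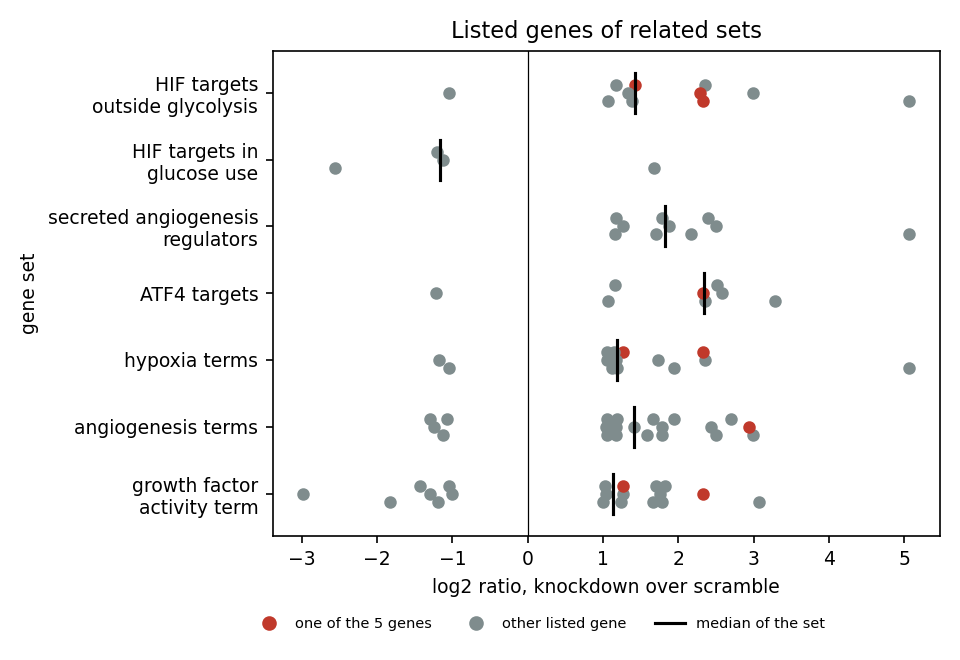
Log2 ratio of knockdown over scramble, with 0.5 reads added, for the listed genes of 4 related gene groups and of the hypoxia, angiogenesis and growth factor ontology terms; red points are among the 5 genes, grey points are other listed genes and the black bar is the median. Of the sets shown, the glucose-use group has a median below 0, at -1.16, which is also the median of all 2007 listed genes. EDN1, at 5.07, had 0 scramble reads, so that its position depends on the reads added.

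The listed neighbours of the 5 genes in the RefSeq gene order were lower, as were 66.7% of all listed genes, so nothing is read from their direction. The protein-coding genes on either side of VEGFA are MRPS18A and MRPL14, which encode mitochondrial ribosomal proteins. MRPS18A had 302 and 123 reads (scramble and knockdown) and a log2 ratio of -1.36, and MRPL14 had 357 and 121 reads and a ratio of -1.62. SNX25, next to ANKRD37, had 90 and 44 reads and a ratio of -1.09, which became 0.072 under the median scaling. The genes next to NDRG1, SCG2 and PDGFB were not listed.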

How the data were processed

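RNA sequencing of 1 scramble and 1 GPR126 knockdown library of HT-29 cells was analysed. The deposited table gives, per the file headers, raw values that are whole-number counts. A column headed TPM holds RPM values made by the authors: 100% of the values behind a nonzero count equal that count per 1e6 reads of the library (tolerance 0.005), and a count of 0 is entered as 0.01. The authors also deposited a log2 ratio, and a p-value with an FDR that compares 2 libraries and was not used. The smallest absolute log2 ratio is 1 and the largest FDR 0.000999, so unlisted genes are not analysed here. For the aligner, annotation, build and strand setting: not given in the sources used here.

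From the counts, log2 ratios were computed with 0.5 reads added, and folds without, with exact Clopper-Pearson 95% intervals conditional on the summed count; levels have exact Poisson intervals. Intervals cover counting error only. No test was run. The calculation was tested on simulated data. The 5 genes and the gene lists were chosen with earlier results of these data known. The text names the 5 genes, GPR126 and every listed gene of a group of 8 or fewer (otherwise up to 4 from each end). It also names the 3 genes nearest to VEGFA in ratio, with provisional symbols left out. MTOR, MRPS18A, MRPL14, SNX25, BHLHE41, ADORA2B and PLAUR were chosen after their values were seen. Some listed genes that the group rule takes count in their groups but are not named. Lists were matched through RefSeq identifiers (2004 of 2007 matched). Promoters were searched by letters in the first entry per gene. Alternatives covered pseudocount, scaling, floor, interval, the authors' ratio and promoter length. Software: scipy 1.17.1, pandas 2.3.3, numpy 2.4.6 and matplotlib 3.10.9 under Python 3.11.15.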

Additional observations from a re-analysis of the deposited data

How the results depend on the processing

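No paired analysis was possible because a single library stood for each condition, which also left none to omit. With 0.05 or 5 reads added, or with the authors' deposited log2 ratio, all 55 named genes stayed inside their counting intervals. The scalings drawn from the listed genes, most of which were lower, took out a shift of -1.16 for the median, -1.0 for the trimmed mean and -0.71 for the upper quartile (log2). By construction they raised every ratio, and a gene that was already higher could not reverse. In that order the log2 ratios became 3.49, 3.33 and 3.03 for VEGFA, 3.44, 3.29 and 2.99 for NDRG1, 2.58, 2.43 and 2.13 for ANKRD37, 2.42, 2.26 and 1.96 for PDGFB, and 4.10 and 3.95 for SCG2 under the first 2. All 5 genes were then at least 4-fold higher under the median and the trimmed mean, against 3 as reported. Requiring the whole counting interval beyond 2-fold left 3 of the 5. With the median scaling TFRC reversed to 0.11, LDHA to 0.044, DICER1 to 0.032, NAA15 to 0.089 and SNX25 to 0.072. That scaling left 0 lower HIF targets outside glycolysis, 2 higher HIF targets in glucose use, 1 lower gene with a hypoxia term and 2 with an angiogenesis term. A floor of 5 RPM removed none of the 5 genes, and a promoter of 200 bases before the start left the 3 ANKRD37 matches in place. Depth limits SCG2, ANKRD37 and PDGFB most, with 16, 40 and 51 scramble reads.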

Other observations

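ADORA2B, the low-affinity adenosine receptor, carries the deposited ontology term for positive regulation of vascular endothelial growth factor production. Its count went from 347 in the scramble to 1090 in the knockdown library (3.01-fold, 2.66 to 3.40). PLAUR, the urokinase receptor, was higher alongside its ligand PLAU: it was 2.27-fold higher (1.86 to 2.77) with 147 and 348 reads. BHLHE41, a hypoxia-inducible transcriptional repressor of the circadian clock, had 37 and 102 reads and was 2.64-fold higher (1.80 to 3.96), close to ANKRD37 at 2.70-fold. BHLHE41 is already counted above among the higher HIF targets outside glycolysis, and ADORA2B among the genes with an angiogenesis term. These genes were chosen after their values were seen, and their relation to VEGFA was not tested.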
